A study of Mus musculus with 6 samples.

Results

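The genes described here are the nuclear genes named for respiratory complex III, complex IV (cytochrome c oxidase) and ATP synthase (complex V), measured in mouse mammary luminal cells. They were chosen by symbol alone: every gene in the expression table that begins with Uqcr, with Cox4 to Cox8 or with Atp5, except symbols that carry the pseudogene tag -ps. The rule found 40 of the 19739 genes in the table, of which 8 belong to complex III, 15 to complex IV and 17 to ATP synthase; the 15 include Cox6c2, which the annotation lists as a processed pseudogene of Cox6c. All 40 also passed the filter on low values, which asked for at least 10 on the linear scale (3.32 on the log2 scale) in at least 3 libraries and left 16394 genes to test.

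The libraries came from primary luminal cells of wild-type (WT) mice, purified by flow cytometry and cultured with 5% FBS, EGF, FGF2, heparin and Y-27632. Serum was withdrawn for 12 hours. The control group of 3 libraries then had 0 µg/ml and the EFNA3 group of 3 libraries had 1 µg/ml of EFNA3 protein, a membrane-anchored ephrin ligand, for 24 hours in serum-free medium. The labels do not state the age of the mice, the form of the protein or whether libraries came from separate animals, so every p reflects the spread of these libraries alone, which may be technical. Values are deposited log2 expression values that had been brought to 1 distribution over all libraries, and depth is unknown. All 11 luminal markers checked stood above the median tested gene in controls, and so did 4 of 8 basal and myoepithelial markers, among them Krt5 at 14.91 ± 0.02 (log2, SD, n = 3). The summed luminal markers stood at 16.36 to 16.44 in controls and at 16.66, 16.47 and 16.43 in EFNA3 replicates 1 to 3, and the summed immune markers (3 of 7 in the table) at 5.04 to 5.45 and at 6.59, 5.55 and 5.43, with the myeloid gene Lyz2 at 5.87 in EFNA3 replicate 1 against 1.37 to 2.95 in controls. The summed basal and myoepithelial markers stood at 16.89 to 16.98 in controls and at 17.04, 16.98 and 16.98 with EFNA3, above the luminal sum in every library. EFNA3 replicate 1 was thus highest in each of these sums, but not in every marker. The luminal genes Esr1, Pgr, Kit and Foxa1 were lowest in it, and the immune gene Csf1r lay within the controls (4.43 against 4.04 to 4.62). Of the basal and myoepithelial markers, Oxtr and Myh11 were lowest in it, and Tagln and Cnn1 lay below all controls in it. Trp63 lay within the controls, while Krt5, Krt14 and Acta2 were highest in it. Krt14 was the highest basal marker, at 16.26 ± 0.08 in controls. The part of these markers in the results was not tested. In bulk samples such as these, fewer cells of a type and less RNA per cell cannot be told apart.

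The respiratory chain passes electrons from complexes I and II through ubiquinone to complex III, from there through cytochrome c to complex IV, and on to oxygen. Complexes III and IV share in building the proton gradient that ATP synthase uses to make ATP. Each complex joins a few catalytic proteins, some of them encoded in mitochondrial DNA, with many small nuclear-encoded subunits, and several complex IV subunits have separate isoform genes for muscle, lung or testis.

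Most members of all 3 complexes had higher group means with EFNA3, by similar amounts in each complex, and 1 EFNA3 library stood above all others in nearly every member. Group means were higher with EFNA3 for 39 of 40 members, against 50.8% of all tested genes, and the median difference was 0.30 on the log2 scale over the members against 0.00 over all tested genes. No member passed limma at an adjusted p of 0.05, the smallest adjusted p being 0.55, and 0% of all tested genes passed. At an unadjusted limma p under 0.05, 17 members were higher, where 3.87% of all tested genes were, and no member was lower, where 2.86% were. In 17 members all EFNA3 libraries lay above all controls, where 8.53% of all tested genes did so, and in no member did all lie below, where 7.45% did. Both the unadjusted threshold and this separation were met by 13 members. EFNA3 replicate 1 was the highest of the 6 libraries for 38 members, the exceptions being Cox6b2 and Atp5g2, and for 35.2% of all tested genes. Without it the median difference over the members was 0.13, with 37 of 40 group means higher (49.8% of all tested genes), and 12 members at an unadjusted limma p under 0.05 (2.41% of all tested genes); again 0 members passed limma's adjusted threshold. The number without overlap was still 17 (10.4% of all tested genes), and since leaving out a library cannot end such a separation, this is no check of it.

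**Figure D1:**
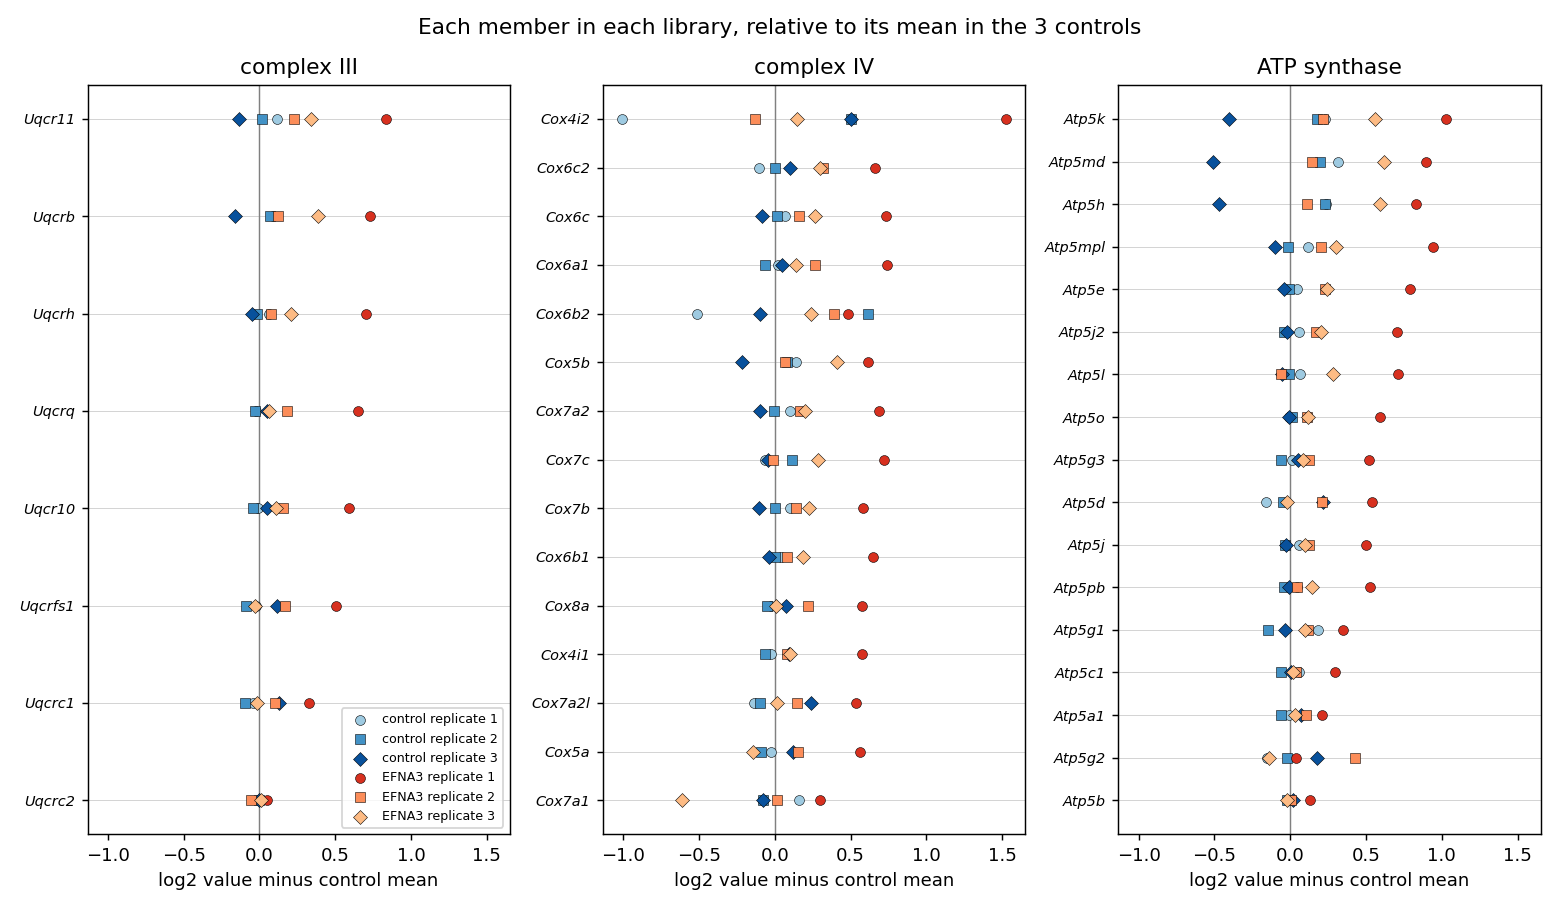
Log2 value of each of the 40 members in each library minus that member's mean in the 3 controls (x axis), with 1 row per gene and a panel per complex; blue points are controls and red to orange points are EFNA3 libraries. EFNA3 replicate 1 (red circles) is the rightmost point in 38 rows, and the other EFNA3 libraries lie close to the controls in most rows.

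In complex III the group means of the small subunit genes lay further apart than those of the core genes. Cyc1, which differed by 0.08 (SE 0.11), and mt-Cytb are also genes of this complex but fall outside the symbol rule. The core group here holds Uqcrc1 and Uqcrc2 (matrix-facing core proteins) and Uqcrfs1, which encodes the Rieske iron-sulfur protein that carries electrons from ubiquinol. Its 3 genes had a median difference of 0.14 with overlap between groups in each, while the 5 small subunit genes had a median of 0.33 and no overlap in any. Uqcr11, a small membrane subunit, read 9.44, 9.35 and 9.19 in controls 1 to 3 and 10.16, 9.56 and 9.67 in EFNA3 replicates 1 to 3 (log2), a difference of 0.47 (SE 0.15). The lowest EFNA3 library lay above the highest control by a margin smaller than the spread of the controls. Uqcrb, which encodes a subunit on the matrix side, read 10.42, 10.40 and 10.17 in controls and 11.06, 10.46 and 10.72 with EFNA3, a difference of 0.41 (SE 0.14). Uqcrh, the hinge protein between cytochrome c1 and cytochrome c, read 11.91, 11.84 and 11.81 in controls and 12.55, 11.93 and 12.06 with EFNA3, a difference of 0.33 (SE 0.14). For both genes EFNA3 replicate 2 came close to the highest control and EFNA3 replicate 1 stood far above it. Uqcrq and Uqcr10, the remaining small subunit genes, differed by 0.30 (SE 0.14) and 0.28 (SE 0.12). By contrast Uqcrc2 read 11.77, 11.76 and 11.77 in controls and 11.82, 11.71 and 11.78 with EFNA3, a difference of 0.00 (SE 0.06) whose sign turned under several settings. Uqcrfs1 read 11.19, 11.13 and 11.33 in controls and 11.72, 11.38 and 11.19 with EFNA3, so that EFNA3 replicate 3 lay within the controls. Uqcrc1 differed by 0.14 (SE 0.10). Without EFNA3 replicate 1 the 5 small subunit genes differed by 0.12 to 0.29 and the 3 core genes by -0.02 to 0.07, and limma gave no adjusted p under 0.05 for any of them in either case. The core transcripts are longer, at 1363 to 1896 nt against 434 to 1521 nt, and the part of length in this contrast was not tested.

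Complex IV genes expressed in most tissues were all higher in group mean with EFNA3. These 10 genes had a median difference of 0.32, and 5 of them, Cox6c, Cox6a1, Cox7b, Cox7a2 and Cox6b1, had no overlap between groups. Without EFNA3 replicate 1 their median was 0.16. Cox6c read 11.03, 10.98 and 10.88 in controls and 11.70, 11.13 and 11.23 with EFNA3 (log2). Cox6a1, the widely expressed isoform of subunit 6a, read 11.26, 11.17 and 11.28 in controls and 11.97, 11.50 and 11.38 with EFNA3, a difference of 0.38 (SE 0.14). Cox7b, a small subunit needed for assembly of the complex, read 11.10, 10.99 and 10.89 in controls and 11.58, 11.13 and 11.22 with EFNA3, a difference of 0.32 (SE 0.12). In these 3 genes EFNA3 replicate 1 stood well above every other library, while EFNA3 replicates 2 and 3 stood closer to the controls, though above the highest of them. Cox4i1, the regulatory subunit 4 that binds ATP and ADP, differed by 0.25 (SE 0.13), with EFNA3 replicate 2 at 12.77 below control replicate 3 at 12.78. Cox5a, a subunit on the matrix side, differed by 0.19 (SE 0.16) with all libraries and by 0.00 (SE 0.09) without EFNA3 replicate 1, and its sign turned to -0.07 when length and GC share were also corrected for. Cox5b, Cox7c and Cox8a differed by 0.37 (SE 0.15), 0.33 (SE 0.17) and 0.27 (SE 0.13), each with overlap between groups. Cox7a2l, which promotes the joining of complexes III and IV into supercomplexes, differed by 0.23 (SE 0.14) and overlapped as well. The pseudogene Cox6c2 read 6.39, 6.49 and 6.60 in controls and 7.16, 6.81 and 6.79 with EFNA3, a difference of 0.43 (SE 0.16).

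Isoform genes of other tissues were low and showed no common direction. Cox4i2, the lung isoform of subunit 4, read 3.49, 5.00 and 4.99 in controls and 6.02, 4.36 and 4.64 with EFNA3 (log2), and its difference of 0.51 (SE 0.53) was 0.01 (SE 0.46) without EFNA3 replicate 1. Cox7a1, the heart and muscle isoform of subunit 7a, read 5.16, 4.92 and 4.92 in controls and 5.29, 5.01 and 4.39 with EFNA3, the only member whose group mean was lower, at -0.10 (SE 0.29). Cox6b2, the testis isoform of subunit 6b, read 3.54, 4.66 and 3.95 in controls and 4.53, 4.44 and 4.29 with EFNA3. Groups overlapped in all 3 genes. Per kb of transcript, Cox4i1 stood 8.14 ± 0.85 above Cox4i2, Cox6b1 stood 7.52 ± 0.59 above Cox6b2 and Cox7a2 stood 5.02 ± 0.07 above Cox7a1 in controls (differences of log2 levels, SD, n = 3). The widely expressed isoform was higher in 6 of 6 libraries for each of these pairs. Of 11 muscle genes 7 were in the table, with a summed level of 7.68 to 7.99 in controls and 7.77 to 8.11 with EFNA3 (log2). The muscle creatine kinase gene Ckm was the lowest of them, at 1.34 ± 1.03 in controls (SD, n = 3). Tnni3 and Mb were the highest, at 6.38 ± 0.30 and 5.98 ± 0.14. Of 6 testis genes the table held Ddx4 alone, at 3.26 ± 0.36 in controls. The part of such cells in these isoform levels was not tested.

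In ATP synthase the group means lay close together for most genes of the catalytic head and further apart for the small membrane subunits. The head and central stalk (the F1 part, where ATP is made) are encoded by Atp5a1, Atp5b, Atp5c1, Atp5d and Atp5e, and their median difference was 0.12. Atp5b, the catalytic beta subunit, read 14.43, 14.41 and 14.45 in controls and 14.56, 14.43 and 14.41 with EFNA3 (log2), a difference of 0.04 (SE 0.07), or -0.01 without EFNA3 replicate 1. Atp5a1, the alpha subunit, read 14.22, 14.18 and 14.31 in controls and 14.45, 14.34 and 14.27 with EFNA3, a difference of 0.12 (SE 0.08). Groups overlapped in both genes, and each stood within 0.15 of its control mean in EFNA3 replicates 2 and 3. Atp5e, the small epsilon subunit, was the exception in this part: it read 10.60, 10.55 and 10.52 in controls and 11.35, 10.78 and 10.80 with EFNA3, with no overlap and a difference of 0.42 (SE 0.14), or 0.23 (SE 0.06) without EFNA3 replicate 1. Atp5c1 and Atp5d differed by 0.12 (SE 0.09) and 0.24 (SE 0.14).

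The rotating ring of subunit c is encoded by 3 genes whose mature proteins are identical. Over the last 75 codons and the stop codon, Atp5g1, Atp5g2 and Atp5g3 encoded the same amino acids in all 3 pairs, while their bases were the same at 85.1%, 79.8% and 78.5% of 228 positions (Atp5g1 with Atp5g2, Atp5g1 with Atp5g3, and Atp5g2 with Atp5g3). The first 90 bases of that stretch are shown from the GENCODE M21 transcripts because they show how far reads of these genes can be told apart; capitals mark the 22 positions at which the genes differ.
Atp5g1: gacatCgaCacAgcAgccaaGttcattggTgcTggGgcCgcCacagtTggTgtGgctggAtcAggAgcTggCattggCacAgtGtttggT
Atp5g2: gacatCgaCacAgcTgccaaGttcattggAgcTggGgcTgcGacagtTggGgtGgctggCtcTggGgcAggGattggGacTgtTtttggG
Atp5g3: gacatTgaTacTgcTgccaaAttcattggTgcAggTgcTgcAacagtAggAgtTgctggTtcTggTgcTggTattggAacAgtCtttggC
The 3 genes differed widely in level. Atp5g3 read 12.30, 12.22 and 12.34 in controls and 12.81, 12.41 and 12.37 with EFNA3 (log2), a difference of 0.24 (SE 0.11) with no overlap. Atp5g1 read 8.70, 8.38 and 8.49 in controls and 8.87, 8.64 and 8.62 with EFNA3, with overlap. Atp5g2 read 5.36, 5.49 and 5.69 in controls and 5.56, 5.95 and 5.38 with EFNA3, again with overlap and a difference of 0.11 (SE 0.22), whose direction turned to -0.05 when a trend in length and GC share was taken out. Per kb of the longest protein-coding transcript, Atp5g3 stood 6.47 ± 0.15 above Atp5g1 and 6.83 ± 0.15 above Atp5g2 in controls (SD, n = 3). The order of the 3 levels was the same with each of 4 ways to measure transcript length, but the gap to Atp5g1, whose longest transcript has 4715 nt, was 5.56 by median transcript length and 3.71 by coding length.

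The peripheral stalk, which holds the head still against the ring, is encoded by Atp5pb, Atp5h, Atp5j and Atp5o, with a median difference of 0.26 and no overlap in Atp5j and Atp5o. Atp5j2, Atp5k, Atp5l, Atp5md and Atp5mpl encode small membrane subunits, of which the e and g subunits (Atp5k and Atp5l) help ATP synthase form dimers. Their median difference was 0.48. Without EFNA3 replicate 1 the medians were 0.11 for the stalk and 0.25 for the small membrane subunits. Atp5mpl read 10.42, 10.28 and 10.20 in controls and 11.24, 10.50 and 10.61 with EFNA3 (log2), a difference of 0.48 (SE 0.17) with no overlap. Atp5j2 differed by 0.36 (SE 0.13), also with no overlap. Atp5k had the largest difference of all members, 0.60 (SE 0.22), but its groups overlapped: it read 9.45, 9.40 and 8.82 in controls and 10.25, 9.44 and 9.78 with EFNA3. Atp5md read 9.58, 9.47 and 8.76 in controls and 10.16, 9.41 and 9.89 with EFNA3, and the stalk gene Atp5h read 10.55, 10.54 and 9.84 in controls and 11.14, 10.42 and 10.90 with EFNA3. In these 3 genes control replicate 3 was by far the lowest library, and EFNA3 replicate 2 lay below control replicate 1. Without control replicate 3 the number of members at an unadjusted limma p under 0.05 was 6 in place of 17 (2.39% of all tested genes), and without control replicate 2 it was 7 (2.01%).

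The medians of the 3 complexes lay close together. The median difference was 0.29 for complex III, 0.33 for complex IV and 0.24 for ATP synthase (log2), and the number of members without overlap was 5 of 8, 6 of 15 and 6 of 17. Relative to the control means, the median over complex III genes was 0.62, 0.14 and 0.09 in EFNA3 replicates 1 to 3, that over complex IV genes was 0.62, 0.15 and 0.18, and that over ATP synthase genes was 0.54, 0.12 and 0.12. EFNA3 replicate 1 thus stood apart in each complex, and the other EFNA3 libraries lay above all controls in each. Within a library the gap between complex IV and complex III was -0.00, 0.01 and 0.10 in EFNA3 replicates 1 to 3 and ran from -0.06 to 0.02 in controls. The gap between complex IV and ATP synthase was 0.08, 0.03 and 0.06 with EFNA3 and -0.08, 0.02 and -0.02 in controls. These gaps are small beside the 0.62 by which EFNA3 replicate 1 departed, and without that library the medians were 0.13, 0.14 and 0.11 for complexes III, IV and ATP synthase. Between kinds of subunit the medians lay further apart: the core, head and c ring groups had medians of 0.14, 0.12 and 0.19, and the small subunit groups of complex III and ATP synthase 0.33 and 0.48. Without EFNA3 replicate 1 these medians were 0.04, 0.07 and 0.11, and 0.14 and 0.25.

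**Figure D2:**
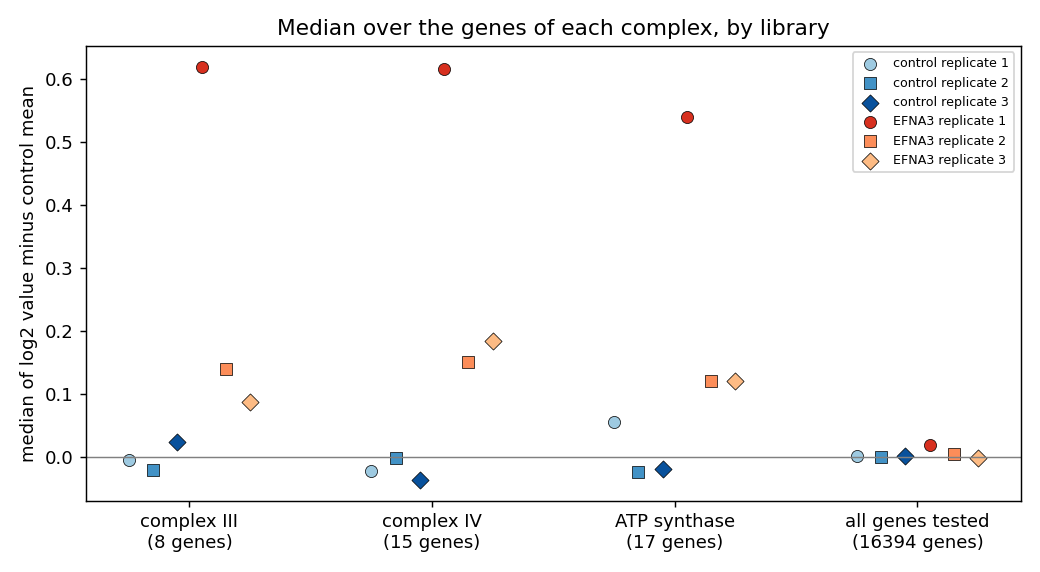
Median over the genes of each complex, and over all 16394 tested genes, of the log2 value minus the gene's control mean (y axis), with 1 point per library; blue points are controls and red to orange points are EFNA3 libraries. EFNA3 replicate 1 stands at 0.54 to 0.62 in the 3 complexes, the other EFNA3 libraries at 0.09 to 0.18, and all libraries near 0 over all tested genes.

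Transcript length moved with these differences. The members are short, with a median of 736 nt for the longest protein-coding transcript against 2795 nt over all tested genes, and 28 of the 40 fell in the shortest eighth of tested genes, up to 1002 nt. In that eighth, 2028 genes had a median difference of 0.18 (log2), 15.1% were higher without overlap, and the medians in EFNA3 replicates 1 to 3 were 0.41, 0.09 and 0.07. In the longest eighth, from 5789 nt, the median difference was -0.18. The members' median of 0.30 thus lay above that of the shortest eighth, whose median control level was 5.99 against 10.76 for the members (log2). Short genes of a level like theirs were not compared. EFNA3 replicate 1 departed in the same direction in the members and in the shortest eighth. The part of length and of that library in the members' differences was not tested beyond the values given here. Across the 40 members, which share libraries and are not replicates, Spearman's rho between the difference and length was -0.51, or -0.47 when EFNA3 replicate 1 was left out. Of the core and head genes, Uqcrc2, Atp5b, Atp5a1 and Atp5c1 have transcripts of 1896, 1916, 2674 and 1735 nt, while Atp5k, Atp5e and Uqcr11 have 371, 421 and 445 nt. Atp5md went the other way, with 2733 nt and a difference of 0.55, or 0.54 after the correction described next, and so did Uqcrq, with 1521 nt and 0.30. Both are exceptions by this length only: their median transcript lengths are 393.5 and 454.5 nt. The correction used the longest protein-coding length, so it treated both as long. When a smooth trend in length and GC share was taken out of every library, the median difference over the members was 0.18 (0.02 over all tested genes), 36 of 40 group means were higher (54.8% of all tested genes) and 11 members had no overlap (8.94% of all tested genes). With the same correction and without EFNA3 replicate 1 the median was 0.07, with 35 of 40 higher (52.2%) and 11 without overlap (11.3%). The correction brought the core and head groups to 0.05 and 0.10, and the small subunits of complex III and ATP synthase to 0.24 and 0.33.

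**Figure D3:**
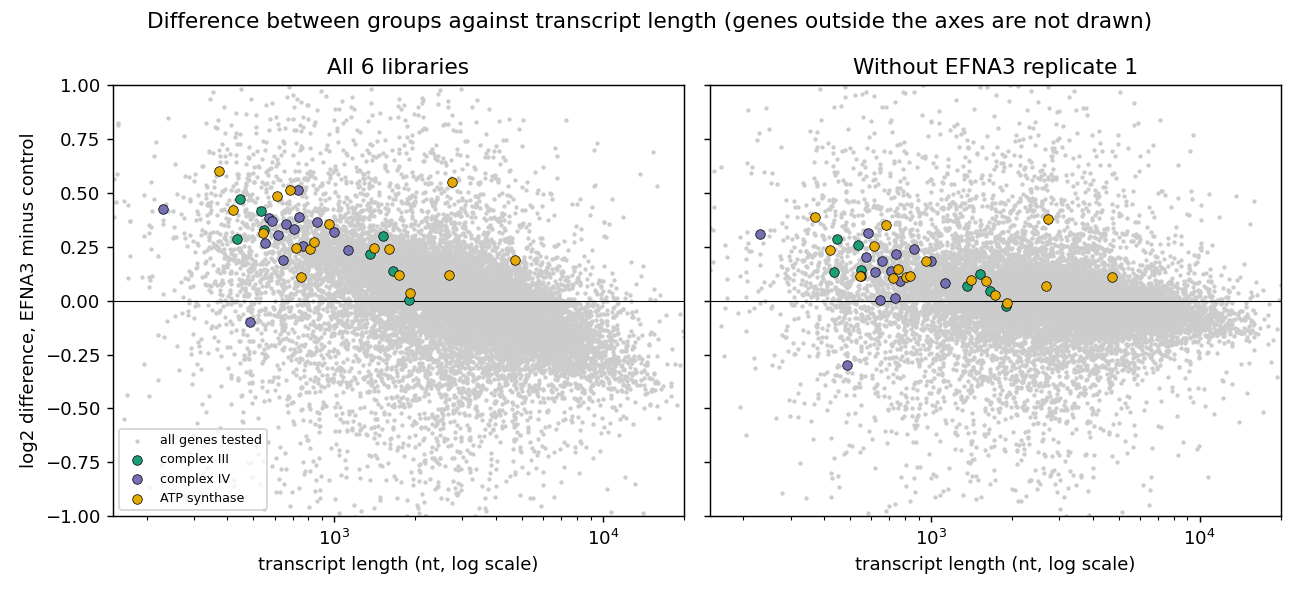
Log2 difference between the EFNA3 and control group means (y axis) against the length of the longest protein-coding transcript in nt (x axis, log scale), with all 6 libraries (left) and without EFNA3 replicate 1 (right); grey points are all tested genes and coloured points the members by complex. Short transcripts lie higher than long ones in the left panel and the slope is smaller in the right panel, where the members' median is 0.13.

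Levels were compared per kb of transcript, on the log2 scale. In controls the highest member per kb was Uqcrh in complex III, Cox4i1 in complex IV and Atp5b in ATP synthase, at 12.72, 13.08 and 13.49 per kb of the longest protein-coding transcript. Atp5b stood 0.67 ± 0.05 above Atp5a1 (SD, n = 3), its partner in the catalytic head, and was the higher in 6 of 6 libraries; the gap was 0.28 by median transcript length and 0.26 by coding length. The lowest were Uqcrq at 9.49, Cox6b2 at 4.82 and Atp5g2 at 5.93. With the longest transcript of any kind, which is a retained intron or another non-coding transcript for 18 of the 40 members, Atp5l took the last place in ATP synthase at 5.84. The places in complex III depended on the length as well: by median transcript length Uqcrc1 was highest at 12.79 and Uqcr11 lowest at 10.27, and by coding length Uqcrc2 was lowest at 11.32. In complex IV Cox4i2 was lowest by both of these, at 4.95 and 5.44. With this longest transcript the median level per kb in controls was 10.81 ± 0.05 for complex III, 9.91 ± 0.19 for complex IV and 10.86 ± 0.02 for ATP synthase (SD, n = 3). With the longest protein-coding transcript these medians were 11.01 ± 0.03, 11.02 ± 0.07 and 11.17 ± 0.06, so the order of complex IV depended on the length used. It depended on the members as well. The complex IV genes expressed in most tissues stood alone at 11.03 ± 0.10 and 11.24 ± 0.09 with these lengths, above both other complexes. ATP synthase lay above complex III with each of 4 lengths. Over all tested genes the median was 7.52 with the longest transcript and 7.61 with the longest protein-coding one, below every complex.

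**Figure D4:**
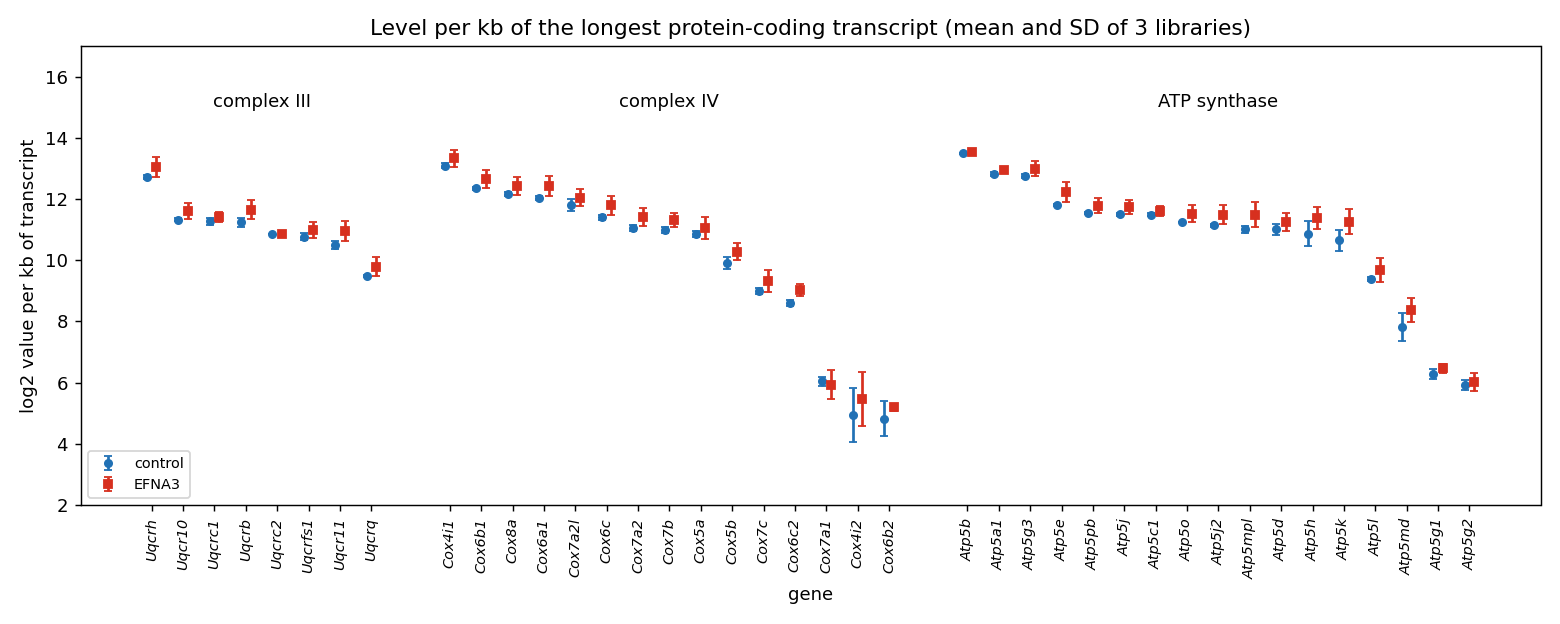
Log2 level per kb of the longest protein-coding transcript (y axis) for each member (x axis), ordered by control level within each complex; circles are the mean of 3 controls and squares the mean of 3 EFNA3 libraries, with bars of 1 SD. Cox4i1 and Atp5b lead their complexes at 13.08 and 13.49, and Cox7a1, Cox4i2, Cox6b2, Atp5g1 and Atp5g2 lie below 7 in controls.

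Members also varied together within each group, in opposite ways for different genes. Control replicate 3 stood more than 0.1 below the mean of the other controls (log2) for 12 members and more than 0.1 above it for 11. Of the 12, 10 were higher in EFNA3 replicate 3 than in EFNA3 replicate 2, namely Uqcr11, Uqcrb, Cox5b, Cox6c, Cox7a2, Cox7b, Atp5h, Atp5k, Atp5md and Atp5mpl. Of the 11, 9 were lower in EFNA3 replicate 3, namely Uqcrc1, Uqcrfs1, Cox5a, Cox6c2, Cox7a2l, Cox8a, Atp5a1, Atp5d and Atp5g2. Cox7a2l read 11.85, 11.88 and 12.22 in controls and 12.52, 12.13 and 11.99 with EFNA3, and Atp5d read 11.34, 11.45 and 11.72 in controls and 12.04, 11.71 and 11.48 with EFNA3. Across the 40 members the Spearman correlation of the 2 within-group differences, which share no library, was -0.67, and over 16183 tested genes with a known length it was -0.26. Over the members, the Spearman correlation with GC share of the transcript was 0.35 for the difference among controls and -0.45 for that between EFNA3 replicates 3 and 2. The part of base composition in this pattern was not tested.

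**Figure D5:**
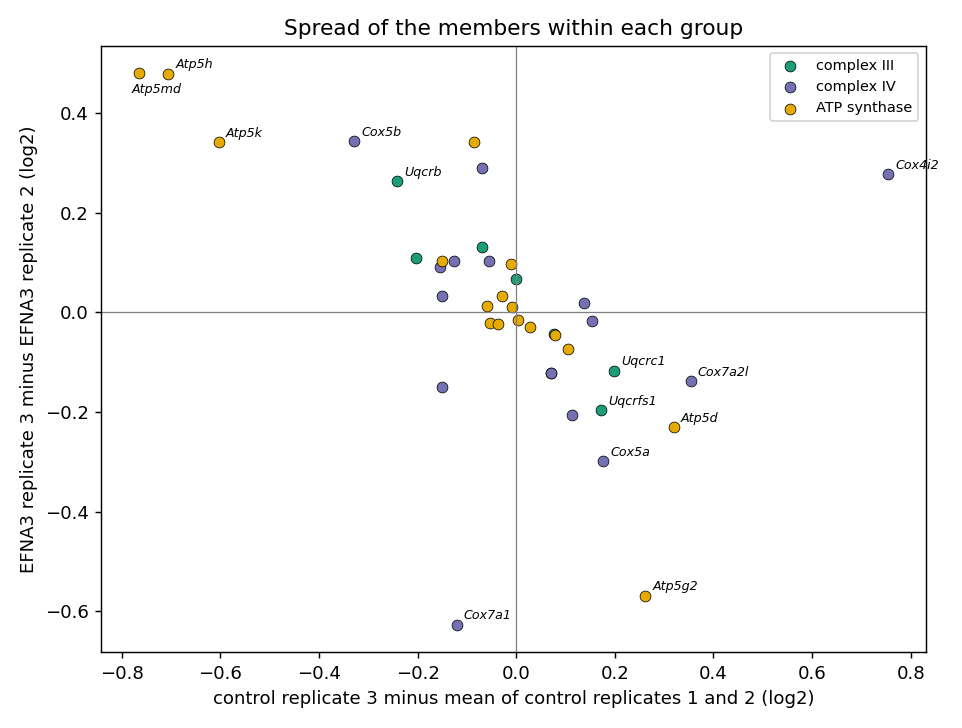
Difference between EFNA3 replicate 3 and EFNA3 replicate 2 (y axis) against that between control replicate 3 and the mean of the other controls (x axis), both on the log2 scale, with 1 point per member coloured by complex. Atp5md, Atp5h and Atp5k lie at the upper left and Atp5d, Cox7a2l and Cox5a at the lower right, while Cox4i2 and Cox7a1, low genes, lie off this line.

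Many members share some sequence with other annotated genes, most of them only a small part, so their counts are uncertain where reads could be split. Of the 40, 23 shared at least 1 run of 50 bases with annotated transcripts of another gene, and 14 shared over 10% of their runs. The share was 68.5% for Atp5l, 52.7% for Cox6c2, 47.9% for Atp5h and 43.2% for Uqcrb. Cox6c2 shared these with Cox6c, of whose runs 13.9% were shared in turn. Among the 9 -ps symbols that the rule left out, Cox5b-ps stood at 9.05 in controls and 9.20 with EFNA3 (mean log2), close to Cox5b itself at 9.70 and 10.06, and Atp5pb-ps at 9.17 and 9.18. The other 7 had control means under 4.

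Promoters were searched because the members stood higher together and because NRF-1 and the ETS factor GABPA are known regulators of respiratory chain genes. RefSeq promoters on GRCm38.p6, 250 bases before to 50 after the start, matched 31 members by symbol, with 34 promoters. The NRF-1 core GCATGCG, searched on both strands, was in 7 of 34 (20.6%) against 3.58% of all 32851 promoters. These belonged to Uqcrc1, Uqcr11, Cox6a1, Atp5k, Atp5j, Atp5l and Atp5g2, whose median difference was 0.31 against 0.28 for the members without it. The ETS motif CCGGAAG, searched on both strands, was in 11 of 34 (32.4%) against 8.86% of all promoters, and the 11 members that held it had a median difference of 0.38 against 0.24 for the others. Cox6a1, Uqcr11, Atp5k, Atp5j and Atp5l held both. The 11 members with the ETS motif have transcripts of 371 to 809 nt, except Atp5md with 2733 nt (393.5 nt by median transcript length). The part of length in this split was not tested. All 32851 promoters span 27025 genes, whether or not they were expressed in these cells. The YY1 core ATGGCGG, searched on both strands, was in 2 of 34 (5.88%), those of Atp5b and Atp5j, against 4.05% of all promoters. Shown are the 250 bases before the start of 3 members that hold the NRF-1 core there, with capitals for the bases of its overlapping matches on both strands: Atp5k (chr5:108434400-108434649, minus strand), with the largest difference of all members; Cox6a1 (chr5:115348959-115349208, minus strand), without overlap between groups; and Atp5g2 (chr15:102671048-102671297, minus strand), whose groups overlapped.
Atp5k: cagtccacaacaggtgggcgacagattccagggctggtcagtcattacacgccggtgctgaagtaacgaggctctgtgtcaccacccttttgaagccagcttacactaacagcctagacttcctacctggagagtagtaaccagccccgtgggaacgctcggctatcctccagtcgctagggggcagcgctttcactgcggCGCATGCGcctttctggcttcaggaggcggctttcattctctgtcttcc
Cox6a1: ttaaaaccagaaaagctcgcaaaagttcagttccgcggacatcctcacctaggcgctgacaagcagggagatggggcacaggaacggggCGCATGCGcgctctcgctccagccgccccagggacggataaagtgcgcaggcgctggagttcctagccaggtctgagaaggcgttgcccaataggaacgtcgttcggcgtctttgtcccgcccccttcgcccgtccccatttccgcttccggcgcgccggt
Atp5g2: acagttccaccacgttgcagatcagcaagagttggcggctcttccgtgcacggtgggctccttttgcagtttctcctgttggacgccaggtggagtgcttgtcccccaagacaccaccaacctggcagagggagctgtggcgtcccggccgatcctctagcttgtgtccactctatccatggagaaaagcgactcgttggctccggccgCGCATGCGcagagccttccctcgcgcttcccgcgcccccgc
The capitals begin 49, 161 and 41 bases before the start in these genes. The same letters thus stood before genes whose differences were 0.60, 0.38 and 0.11.

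Genes around these complexes were taken from lists by function. The 6 mitochondrially encoded subunits had no common direction, with 3 higher and 3 lower group means. Their median difference was 0.01, or -0.07 with the length and GC correction. Mt-Cytb, the catalytic cytochrome b of complex III, differed by 0.07 (SE 0.08), mt-Co1 by -0.06 (SE 0.11), mt-Co2 by 0.27 (SE 0.13), mt-Co3 by 0.19 (SE 0.10), mt-Atp6 by -0.05 (SE 0.09) and mt-Atp8 by -0.44 (SE 0.35). Mt-Co1 read 17.59 in 4 of 6 libraries, since equal ranks take equal values at the top of a table with 1 distribution, and its sign turned to 0.03 without EFNA3 replicate 1. Of 6 further nuclear genes of the complexes, all had higher group means. Among them Atpif1, the inhibitor that blocks ATP synthase from running backwards, read 10.92, 11.00 and 10.68 in controls and 11.61, 10.98 and 11.28 with EFNA3. Ndufa4, a subunit now assigned to complex IV, read 11.34, 11.29 and 11.28 in controls and 12.03, 11.46 and 11.56 with EFNA3, with no overlap.

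Assembly factor genes had smaller median differences than the subunits. Their transcripts were also longer, with medians of 2262, 1733 and 1813 nt for the complex III, complex IV and ATP synthase lists against 736 nt for the members. With the length and GC correction the median differences of these lists were 0.08, 0.08 and 0.05, against 0.18 for the members. Group means were higher for 5 of 6 genes listed for complex III assembly, 20 of 26 for complex IV and 6 of 7 for ATP synthase. Their median differences were 0.15, 0.14 and 0.15 (log2), or 0.04, 0.03 and 0.10 without EFNA3 replicate 1. The ATP synthase list held Nubpl and Foxred1, which are known as complex I assembly factors and differed by 0.22 and 0.07. The smallest unadjusted limma p among them belonged to Fmc1, an ATP synthase assembly factor, which read 7.39, 7.39 and 7.36 in controls and 8.08, 7.64 and 7.83 with EFNA3. The difference was 0.47 (SE 0.14), or 0.35 (SE 0.13) without EFNA3 replicate 1. Cox19, a copper-handling factor for complex IV with a transcript of 2461 nt, differed by 0.26 (SE 0.09) with no overlap. Complex II genes had a median of 0.15 with 8 of 8 higher, carriers of ADP, ATP and phosphate 0.16 with 6 of 7 higher, citrate cycle genes 0.07 with 8 of 12 higher, and glycolysis genes 0.04 with 9 of 14 higher. Without EFNA3 replicate 1 these medians were 0.03, 0.05, 0.02 and -0.01, and that of the further nuclear genes was 0.14 in place of 0.26. Regulators of mitochondrial gene expression, such as Nrf1, Gabpa and Tfam, had a median of -0.02 with 6 of 14 higher. Ppargc1b, a coactivator in this list, read 7.33, 7.49 and 7.19 in controls and 6.20, 7.35 and 7.08 with EFNA3. EFNA3 replicate 1 was the lowest library, EFNA3 replicate 3 also lay below all controls, and EFNA3 replicate 2 lay within them. No gene of these lists passed limma at an adjusted p of 0.05. At an unadjusted p under 0.05, 11 of the 106 tested genes of these lists were higher, where 3.87% of all tested genes were, and 1, the glycolysis gene Pfkp, was lower, where 2.86% were.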

How the data were processed

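RNA-seq libraries of 3 control and 3 EFNA3 samples were analysed, grouped by the treatment in the labels. The authors deposited 1 table of log2 expression values; per the submitters' processing notes Trim Galore, Subread and featureCounts were used with mm39; no source used here gives their versions. Base 2 of the logarithm was read from the range of the values. Sorted columns differ by at most 0.00302 between libraries, so values had been brought to 1 distribution, depth is unknown, and a shift of all genes cannot be seen. Genes with at least 10 on the linear scale (3.32 on the log2 scale) in 3 or more libraries were tested with limma 3.58.1 (R 4.3.3, mean-variance trend, Benjamini-Hochberg adjustment), after the fit was tested on simulated data. With 3 libraries a group the smallest p that exact permutation allows is 0.1, so it was not used. The members and lists were chosen with earlier results of these data known. Named genes were, per complex, the 4 members with the smallest and the 1 with the largest unadjusted p, those highest and lowest per kb, isoform pairs, subunit c genes, catalytic genes, mitochondrially encoded genes and up to 2 genes of each list; all other members were named to account for them after their values were seen. Transcript lengths, GC shares and shared runs of 50 bases came from GENCODE M21 (GRCm38, an earlier build than mm39), matched by symbol for 98.2% of genes and all 40 members. Short motif cores were searched in the promoters in place of longer forms, a choice made after results with the longer forms were seen. Alternatives were no filter or one with 50 on the linear scale, a pseudocount of 5, median centring, no trend, library weights, replicate blocks, a spline correction for length and GC share, leaving out each library, and other transcript lengths; the protein-coding length was added after seeing the data.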

Additional observations from a re-analysis of the deposited data

How the results depend on the processing

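Titles number the replicates in both groups, and deviations of same-numbered libraries from their group means correlated at -0.105, 0.03 and -0.318. With 3 libraries a group these values cannot show whether the numbers pair libraries, and the labels do not state it. With a replicate block by title, 0 members passed limma's adjusted threshold and 19 were higher at an unadjusted p under 0.05, against 17 without the block. With a replicate block by the description numbers 3 members passed (Atp5h, Atp5k and Atp5md), as did 71 of all 16394 genes tested. The difference of Atp5g2 turned to -0.0604. Only replicate 1 of both groups and replicate 3 of both groups share a description number. The differences in that fit thus rest on those libraries, and replicate 2 of either group adds nothing to them. The unadjusted count was 3 with no trend and 6 with the length and GC correction without EFNA3 replicate 1, and it ran from 6 to 24 when 1 library was left out, with 7 without control replicate 2. The count without overlap was 11 with the correction, 11 with the correction and without EFNA3 replicate 1, and 17 to 26 with 1 library left out, which can only keep or raise it; the 26 came without EFNA3 replicate 2, where 16.0% of all tested genes had no overlap, against 8.53% with all libraries. The gap of 0.09 between the medians of complex IV and ATP synthase was 0.0338 with library weights, 0.0357 with the correction, -0.0025 with the correction and without EFNA3 replicate 1, 0.0100 by means, and 0.0232 to 0.127 with 1 library left out. The gap between ATP synthase and complex III turned from -0.05 to 0.0045 with the correction, to 0.0189 with the correction and without EFNA3 replicate 1, where the complex IV median was 0.0710, and to 0.0276 by means. The gap of 0.04 between complexes IV and III turned to -0.0022 without control replicate 3 and to -0.0142 without EFNA3 replicate 3. Control levels per kb for complexes III, IV and ATP synthase were 10.81, 9.91 and 10.86 by the longest transcript of any kind and 11.01, 11.02 and 11.17 by protein-coding transcript. They were 11.30, 11.53 and 11.78 by median length and 11.89, 12.62 and 12.51 by coding length. The ubiquitous complex IV genes alone stood at 11.03 by the longest transcript of any kind and at 11.24 by protein-coding transcript.

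Among 64 genes (all 40 members and 24 others) and 1020 comparisons with alternatives, 20 over 9 genes changed sign. With the length and GC correction these were Atp5b (-0.0011), Atp5g2 (-0.0525), Uqcrc2 (-0.0445) and mt-Cytb (-0.0128). With the correction and without EFNA3 replicate 1 they were Atp5b (-0.0172), Cox4i2 (-0.0628), Cox5a (-0.0651), Uqcrc2 (-0.0389), mt-Co1 (0.0076) and mt-Cytb (-0.0094). With 1 library left out, Atp5b ran from -0.0091 (without EFNA3 replicate 1) to 0.0673, Uqcrc2 from -0.0235 (without EFNA3 replicate 1; -0.0035 without EFNA3 replicate 3) to 0.0302, and mt-Co1 from -0.111 to 0.0339 (without EFNA3 replicate 1). Atp5g2 ran from -0.0498 (without EFNA3 replicate 2) to 0.234, Cox7a1 from -0.298 to 0.156 (without EFNA3 replicate 3) and mt-Atp6 from -0.0899 to 0.0244 (without control replicate 1). Library weights turned Uqcrc2 (-0.0296) and mt-Co1 (0.0143). The stricter filter left 36 members. Depth is unknown, so the precision of low members such as Cox4i2 and Cox6b2 rests on the spread between libraries alone.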
